A study of Mus musculus with 17 samples.

Results

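Plasminogen activators and the serpins that hold them in check form a small group of genes: Plat, Plau, Plaur, Serpine2 and Serpinb2. They were taken by symbol from a count table of 25198 genes, and all 5 were present and passed the filter on low counts, among 9603 genes tested. The libraries came from antral follicles of CD1 mice aged 16 days, grown for 8 days in eIVFG (encapsulated in vitro follicle growth) and then treated for 4 h. Each library pooled follicles in triplicate. Tyrphostin libraries (n = 6) had hCG, the gonadotropin used to start ovulation in culture, together with 10 µM Tyrphostin-AG1478, which blocks the kinase of the EGF receptor, in DMSO. For Control libraries (n = 11) the labels carry the same treatment text, so their hCG and vehicle are not known. The labels name 2 batches. Batch 1 held Control 1 to 6 and Tyrphostin 1 to 3, and batch 2 held Control 7 to 11 and Tyrphostin 4 to 6. Whether libraries of a group came from separate animals or cultures is not given, so p-values measure the spread between these libraries, which may be technical.

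Plasminogen circulates in follicular fluid as an inactive precursor, and tissue-type (Plat) and urokinase-type (Plau) plasminogen activator cleave it to plasmin, a broad protease that degrades matrix and switches on other proteases. The receptor Plaur holds urokinase on the cell surface and confines its activity there. Serpins end the reaction by trapping the activator in an inactive complex. In the ovary this system has long been studied for the breakdown of the follicle wall at ovulation, and mouse granulosa cells are known for secreting urokinase.

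Total counts ran from 1820545 to 8291024 per library, and a floor of 3 counts corresponded to 0.336 to 1.64 CPM (counts scaled to a common library size with TMM factors). Follicle identity was read from granulosa markers: 8 of 8 were detected, 6 of them in every library, and their summed level was 62323 to 81210 CPM in Control and 52474 to 77648 CPM in Tyrphostin libraries, mostly from Inha. Amh (at most 4 counts in a library) and Foxl2 (at most 30) were near the floor, and 3 of the 6 granulosa markers tested were called higher in Tyrphostin libraries. Oocyte markers summed to 24 to 101.8 CPM in Control and 24.1 to 246.2 CPM in Tyrphostin libraries, with Gdf9 the most abundant. Theca and stroma markers, led by Col3a1, reached 273.8 to 2168.6 CPM and 280 to 3096.1 CPM. Endothelial markers, led by Cdh5, stayed at or under 88.7 CPM, and leukocyte markers, led by Lyz2, ran from 17.4 to 462 CPM in Control and from 18.3 to 855.2 CPM in Tyrphostin libraries. No marker was at 0 in every library, and none of these other lists had a marker that was called.

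In GRCm38 (GENCODE M21) the members lie on 4 chromosomes and all are protein-coding. Plat is at chr8:22757727-22782844 (+ strand, 14 exons in its longest coding transcript), Plau at chr14:20836660-20843385 (+, 11 exons) and Plaur at chr7:24462484-24475968 (+, 7 exons). Both serpins are on chromosome 1, Serpine2 at chr1:79794197-79861180 (- strand, 9 exons) and Serpinb2 at chr1:107511423-107535478 (+, 8 exons). Serpinb2 shares 291 exonic bases with Serpinb10 on the same strand, so reads there may have been dropped or split. Serpinb10 itself had 2 counts over all libraries. No other member overlaps an annotated gene.

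RefSeq promoter entries (GRCm38.p6) matched 3 of the 5 members, Plaur, Serpinb2 and Serpine2, and their 250 bases before the start are shown for that reason. Plat and Plau were not matched. The RefSeq start used for Serpine2 (79858665) lies inside the GENCODE gene given above, whose outermost start on the - strand is 79861180. Its window is therefore before that RefSeq start only. The sequences run 5′ to 3′ on the gene's strand, and capitals mark every match to 5 motifs searched on both strands: the AP-1 motif TGANTCA, the cyclic AMP response element TGACGTCA, the shorter TGACG (contained in the full element), the GC box GGGCGG and the ETS motif AGGAAG. Neighbouring GC boxes can share 1 base.
Plaur, chr7:24462233-24462482, + strand: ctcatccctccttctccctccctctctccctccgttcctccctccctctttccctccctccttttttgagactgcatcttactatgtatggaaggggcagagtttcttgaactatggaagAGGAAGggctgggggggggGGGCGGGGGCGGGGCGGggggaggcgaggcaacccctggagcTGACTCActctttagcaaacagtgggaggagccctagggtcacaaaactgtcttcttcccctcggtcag
Serpinb2, chr1:107511173-107511422, + strand: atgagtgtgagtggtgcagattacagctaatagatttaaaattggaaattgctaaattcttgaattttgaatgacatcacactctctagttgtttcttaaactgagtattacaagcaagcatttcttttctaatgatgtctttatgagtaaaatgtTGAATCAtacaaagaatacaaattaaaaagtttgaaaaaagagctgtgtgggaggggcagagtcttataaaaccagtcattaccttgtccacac
Serpine2, chr1:79858666-79858915, - strand: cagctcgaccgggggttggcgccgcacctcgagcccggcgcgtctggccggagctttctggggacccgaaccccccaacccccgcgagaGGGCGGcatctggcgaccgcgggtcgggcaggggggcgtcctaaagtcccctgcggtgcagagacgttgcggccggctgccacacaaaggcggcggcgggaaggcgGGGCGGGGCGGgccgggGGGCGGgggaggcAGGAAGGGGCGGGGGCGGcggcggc
AP-1 motifs occurred once in Plaur, as TGACTCA starting 69 bases before the start, and once in Serpinb2, as TGAATCA starting 94 bases before it. No AP-1 motif was in the Serpine2 window. Of 32851 RefSeq promoter windows of that length, 6.75% held this motif. GC boxes numbered 3 in Plaur, 6 in Serpine2 and 0 in Serpinb2, against 32.7% of windows with at least 1. The ETS motif was found once each in Plaur and Serpine2 (29.5% of windows), and neither the response element (1.55%) nor its shorter form (17.8%) was in any of the 3. Base composition differed widely, with 32.4% G and C in Serpinb2, 59.6% in Plaur and 78.8% in Serpine2, against a median of 52.4% over all windows. From a second Serpinb2 start that RefSeq lists further on, the same AP-1 match lies 181 bases away. Matches describe letters only, and binding was not measured.

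**Figure D1:**
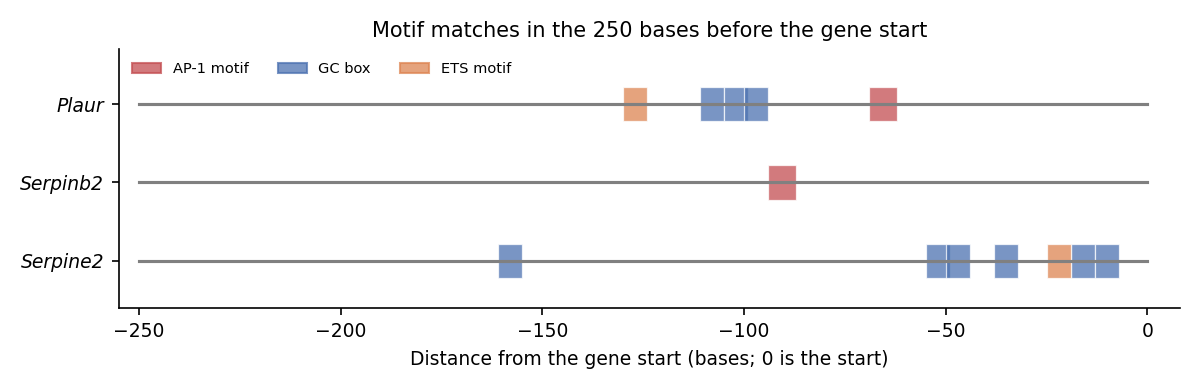
Position of motif matches in the 250 bases before the start of Plaur, Serpinb2 and Serpine2, with distance from the start in bases on the horizontal axis; each box is 1 match, coloured by motif. Plaur and Serpinb2 each have 1 AP-1 box and Serpine2 has 6 GC boxes and no AP-1 box.

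Levels were compared between genes as CPM per kilobase of the longest coding transcript. In Control libraries the median was 3984.3 for Serpine2, 932.9 for Plau, 71.8 for Serpinb2, 30.6 for Plat and 10.3 for Plaur. Serpine2, a surface-bound serpin that inhibits both activators and thrombin, was highest on this scale in batch 1, where its lowest Control library (3583.1) was above the highest of Plau (3059.5). That order depends on the length used. With the union of all annotated exons as length, the Control medians were 1062.5 for Serpine2 and 923 for Plau, and in batch 1 they were 1114.5 and 1398.3, with Plau the higher. The neighbours below overlapped. In batch 1 Control libraries Serpinb2 (23.5 to 190.3) overlapped Plat (17.2 to 36.4), and in batch 2 Serpinb2 (40.5 to 261.7) overlapped Plau (122.2 to 263.5), so that these 2 changed places between batches by median (232.1 and 204.7). Plaur was lowest in every group.

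The main comparison asked which of these transcripts differed between Tyrphostin and Control libraries. Since the hCG and vehicle of the Control libraries are not known, a difference in these cannot be told apart from the kinase block. Plaur and Serpinb2 were lower in Tyrphostin libraries, by 4.80-fold and 6.62-fold. The other 3 did not pass the threshold, an adjusted p of 0.05 in edgeR's quasi-likelihood test with batch as a term. Thus 2 of 5 members were called lower and 0 higher, against 6.25% lower and 4.35% higher among all genes tested. The median log2 fold change of the members was -1.08, and that of all genes tested was 0.0001. Fewer cells of a type and less RNA per cell cannot be told apart in these bulk libraries.

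**Figure D2:**
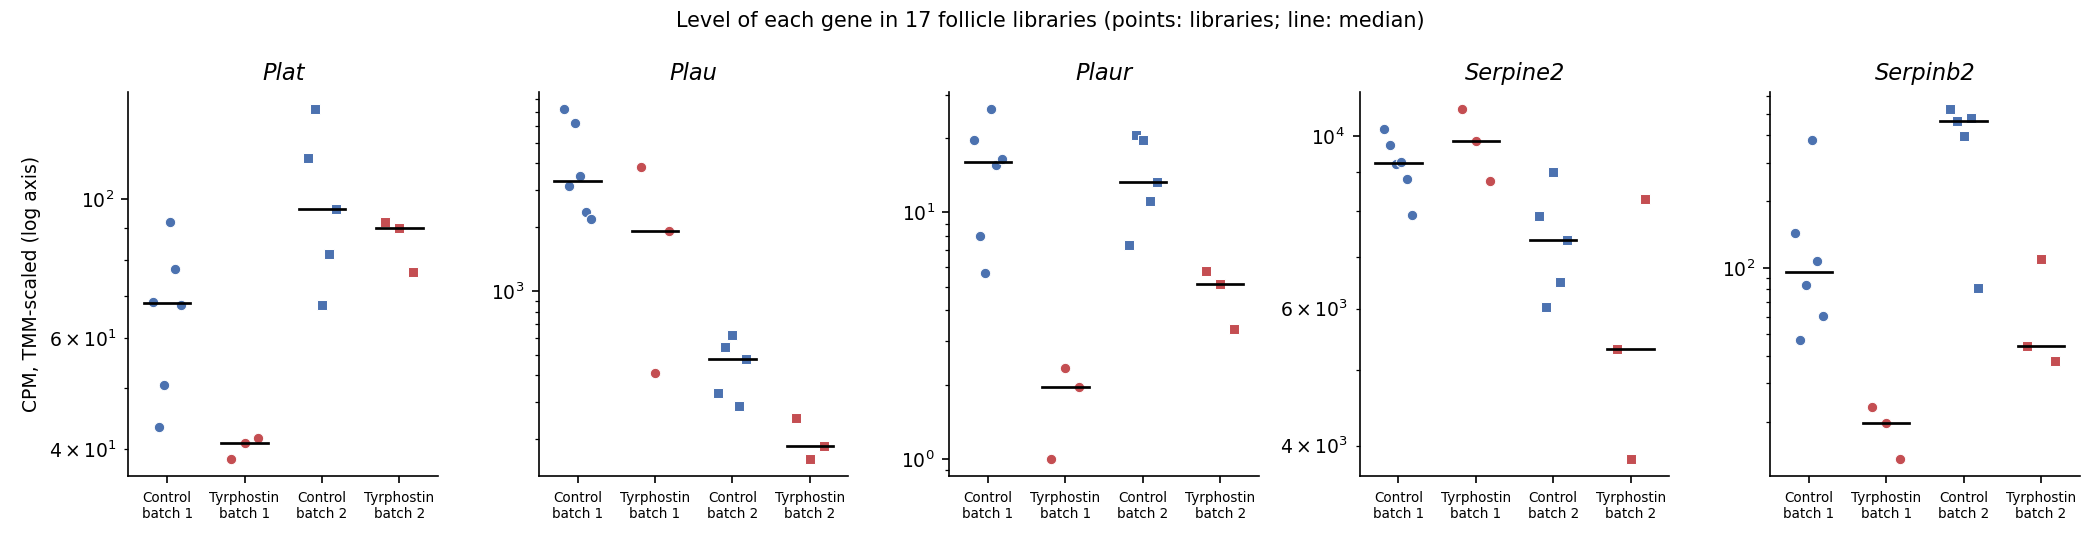
CPM of each gene on a log axis in the 17 libraries, by treatment and batch; points are libraries (circles batch 1, squares batch 2) and lines are medians. In both batches all Tyrphostin points of Plaur lie below the Control points of the same batch, while those of Serpine2 overlap them.

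Urokinase, the product of Plau, was the activator with the higher transcript level. In Control libraries of batch 1 its level was 7165.4, 3135.1, 6208.5, 3484.7, 2365 and 2184.8 CPM for Control 1 to 6. The Tyrphostin libraries of that batch had 3858.1, 410.4 and 1908.8 CPM, so 2 of 3 were below every Control library there and Tyrphostin 1 was not. In batch 2 the Control libraries had 331, 546.5, 617.2, 286.2 and 479.5 CPM (Control 7 to 11). All 3 Tyrphostin libraries of batch 2 (252.8, 162.3 and 186.5 CPM) were below all 5 of them, as were 4.89% of all genes tested in that batch. The log2 fold change was -1.08 ± 0.36 (SE; edgeR adjusted p = 0.0585), just short of the threshold, and it was -0.98 within batch 1 and -1.17 within batch 2. Of 8 fits of batch 2 that left out a library, 1 passed, without Control 7 (edgeR adjusted p = 0.0407). With both batches, DESeq2 (adjusted p = 0.0155) and limma-voom (0.0327) called Plau lower, as did edgeR without Tyrphostin 1 (0.0147) or Control 6 (0.0475). Without the batch term the adjusted p was 0.515.

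Plat, which encodes the tissue-type activator, was expressed far lower and moved less. Control 1 to 6 had 68.5, 43.4, 50.5, 91.9, 77.3 and 67.9 CPM, and the 3 Tyrphostin libraries of batch 1 had 38.6, 40.9 and 41.6 CPM, tightly grouped and below all 6. A gap of that kind, with all 3 libraries lower, was present for 6.46% of genes tested in batch 1. In batch 2 the Control libraries had 116, 138.8, 67.8, 81.8 and 96.3 CPM. The Tyrphostin values of 91.9, 90 and 76.5 CPM lay within that range. Over all libraries the log2 fold change was -0.47 ± 0.18 (SE; edgeR adjusted p = 0.105). It was -0.72 (0.093) within batch 1 and -0.22 (0.857) within batch 2, and the difference between batches was not detected (0.5 ± 0.35, SE; unadjusted p = 0.165).

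Plaur encodes the urokinase receptor, a surface protein held by a lipid anchor. Its level in Control libraries was 5.68 CPM at the lowest (Control 3), 15.5 at the median and 26.1 at the highest (Control 4). Tyrphostin 1 to 3 had 1, 2.33 and 1.95 CPM and Tyrphostin 4 to 6 had 5.76, 5.12 and 3.36 CPM, so 5 of 6 were below every Control library and Tyrphostin 4 exceeded Control 3 alone. Within each batch the groups did not overlap. A gap in that direction was found for 6.46% of genes tested in batch 1 and 4.89% in batch 2. The log2 fold change was -2.26 ± 0.37 (SE; edgeR adjusted p = 0.000238), and the call held under 13 of 13 alternatives and whichever of the 17 libraries was left out. Depth was limited for this gene, with 7 to 42 counts per Tyrphostin library. An alternative filter of at least 10 counts in every library removed Plaur, so that alternative could not test it and is not among the 13.

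The size of the Plaur decrease differed between batches as fitted. It was -3.1 ± 0.49 (SE; edgeR adjusted p = 0.000845) in batch 1, where 3.79% of genes were called lower and 2.94% higher. In batch 2, where 0.427% were called lower and 0.193% higher, it was -1.59 ± 0.39 (SE; edgeR adjusted p = 0.101). The interaction was 1.51 ± 0.63 on the log2 scale (SE; unadjusted p = 0.0259, edgeR adjusted p = 0.9997), and 3.56% of all genes had an unadjusted p under 0.05 in that test, so no difference between batches was shown. Of 8 fits of batch 2 that left out a library, the decrease passed in 1, without Control 7 (edgeR adjusted p = 0.0163). Leaving out Control 7 also raised the number of genes called in batch 2 from 61 to 221. The highest adjusted p was 0.38, without Tyrphostin 6. The Control medians of Plaur were 16 CPM in batch 1 and 13.2 CPM in batch 2.

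Serpinb2, or plasminogen activator inhibitor 2, is a serpin that stays largely inside cells and can inhibit urokinase. Its Control levels were spread widely, from 46.9 CPM (Control 2) through a median of 143.4 to 522.3 CPM (Control 7). Tyrphostin 1 to 3 had 23.4, 19.7 and 13.7 CPM, below all 6 Control libraries of batch 1, as were 6.46% of genes tested there. Tyrphostin 4 to 6 had 44.5, 110 and 37.9 CPM, and Tyrphostin 5 exceeded Control 11 (80.9 CPM) in the same batch. Over both batches, 5 of 6 Tyrphostin values were lower than the lowest Control value. The log2 fold change was -2.73 ± 0.49 (SE; edgeR adjusted p = 0.0015), with -2.85 within batch 1 (0.0291) and -2.6 within batch 2 (0.0832). Batch 1 alone lost the call without Control 1 (0.0691) or Tyrphostin 1, 2 or 3 (0.0925, 0.143 and 0.102), and batch 2 alone passed without Control 11 (0.017).

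Tyrphostin 5, the Tyrphostin library highest in Serpinb2, also had the highest summed theca and stroma markers (3096.1 CPM) and leukocyte markers (855.2 CPM) of all libraries. Among Control libraries of batch 2, Control 7 and 8 were high in both (2168.6 and 2031.9 CPM of theca and stroma markers, 300.8 and 462 CPM of leukocyte markers) and had 522.3 and 463.3 CPM of Serpinb2. Control 10 had 476.3 CPM of Serpinb2 with 1207.8 CPM of theca and stroma markers and 58.7 CPM of leukocyte markers. In the same order, Control 9 had 395.7, 450.4 and 119.4 CPM, and Control 11 had 80.9, 496.7 and 53.8 CPM. The part of these cells in the Serpinb2 level was not tested. Without Tyrphostin 5 the log2 fold change of Serpinb2 was -3 and without Control 4 it was -2.41. The call held whichever of the 17 libraries was left out and under 13 of 14 alternatives. It was lost when libraries were grouped by replicate number (-2.16, edgeR adjusted p = 0.094), though the numbers were not taken as pairs.

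Serpine2, also named protease nexin 1, had the smallest spread of the 5 genes among Control libraries (SD of log2 CPM 0.24, n = 11). Control libraries ran from 6022.6 CPM (Control 8) through a median of 8805.3 to 10193.6 CPM (Control 1). Tyrphostin libraries had 10813.8, 9860.3 and 8753.5 CPM in batch 1 and 5328.6, 3850.5 and 8299.4 CPM in batch 2. The highest of all 17 libraries and the 2 lowest were thus Tyrphostin libraries. The log2 fold change was -0.11 ± 0.17 (SE; edgeR adjusted p = 0.771), with a 95% interval of -0.47 to 0.25, and 0.1 within batch 1 and -0.33 within batch 2. Its sign was not stable: it was 0.03 with total-count scaling, which moves the median of all genes from 0.0001 to 0.15, and 0.02 without Tyrphostin 5.

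**Figure D3:**
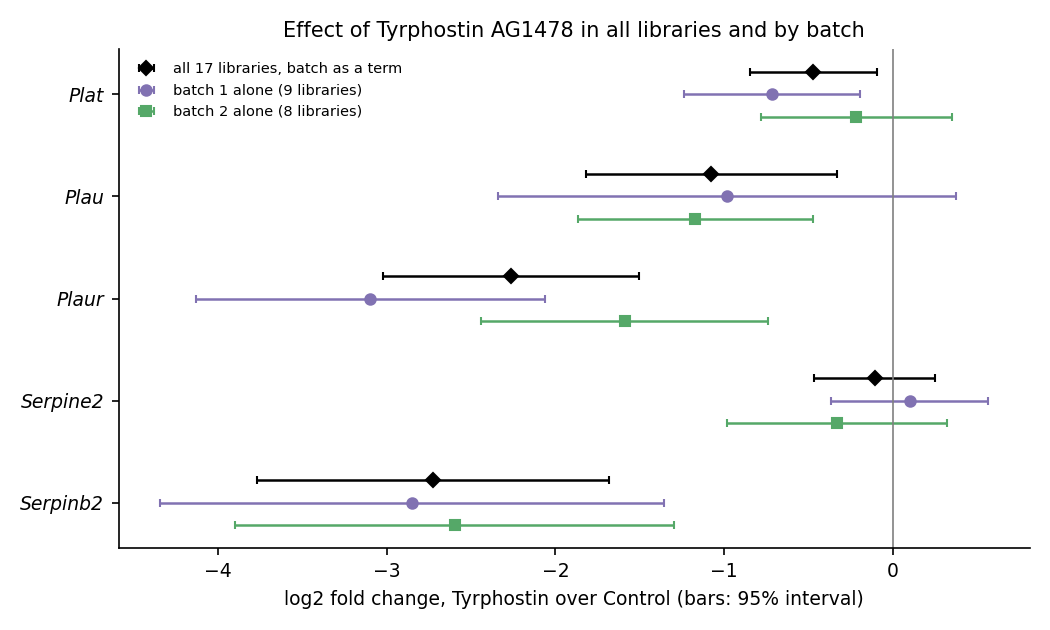
Log2 fold change of each gene, Tyrphostin over Control, in all 17 libraries and in each batch alone; bars are 95% intervals. The intervals of Plaur and Serpinb2 lie below 0 in all 3 fits, and those of Serpine2 include 0 in all 3.

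Control libraries of the 2 batches were compared next. Plau was 8.99-fold lower in batch 2 than in batch 1, a log2 difference of -3.17 ± 0.36 (SE; edgeR adjusted p = 8.18e-05), which ranked 12 by p among 9128 genes tested. All 5 Control libraries of batch 2 (at most 617.2 CPM) were below all 6 of batch 1 (at least 2184.8 CPM), a gap found for 3.99% of genes tested in that direction. Thus 1 of 5 members was called lower and 0 higher, against 5.5% of genes in each direction. The Plau call held under 4 of 4 alternatives and whichever of the 11 libraries was left out. With Control libraries summed by the set number in their names its adjusted p was 0.0116.

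The other members did not pass in that comparison. Serpinb2 had a median of 95.3 CPM in batch 1 and 463.3 CPM in batch 2 (log2 difference 1.51 ± 0.55, SE; edgeR adjusted p = 0.103). It passed without Control 4 (log2 difference 2.14, adjusted p = 0.00872) and without Control 11 (1.77, 0.035). Plat was 66.6 ± 17.7 CPM (SD, n = 6) in batch 1 and 100.1 ± 28.1 CPM (SD, n = 5) in batch 2, and its log2 difference of 0.6 ± 0.23 (SE; edgeR adjusted p = 0.0974) passed with total-count scaling (0.79, 0.0298). Serpine2 (-0.31 ± 0.2, SE) and Plaur (-0.06 ± 0.36, SE) had smaller differences, with edgeR adjusted p of 0.335 and 0.937, and the sign of Plaur turned with total-count scaling (0.14). The treatment effect on Plau and the batch difference share the Control libraries, and the labels do not say what distinguishes the batches.

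Ratios of counts within a library do not depend on scaling between libraries, and they are given here as a description. The log2 ratio of Plau to Plat was 4.93 to 6.94 in Control libraries of batch 1 and 1.51 to 3.18 in those of batch 2, with no overlap. The mean difference, Tyrphostin minus Control, was -0.67 in batch 1 and -0.96 in batch 2. In batch 1 only Tyrphostin 2 (3.325) lay below the Control range, and Tyrphostin 1 and 3 (6.64 and 5.52) lay within it. For Plau over Serpine2, activator over inhibitor, the mean difference was -1.44 and -0.75. There Tyrphostin 1 (-1.49) in batch 1 and Tyrphostin 4 and 5 (-4.4 and -4.57) in batch 2 lay within the Control range of their batch. The ratio of Plat to Serpinb2 moved the other way, by 1.83 in batch 1 and 2.34 in batch 2. In batch 1 the 3 Tyrphostin ratios (0.72 to 1.6) were above all Control ratios (at most 0.17), and in batch 2 Tyrphostin 5 (-0.29) fell below Control 11 (0.25). For Plau over Plaur the mean difference was 1.62 in batch 1 and 0.38 in batch 2. Only Tyrphostin 1 (11.8) and Tyrphostin 6 (5.76) were above the Control libraries of their batch in that ratio.

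**Figure D4:**
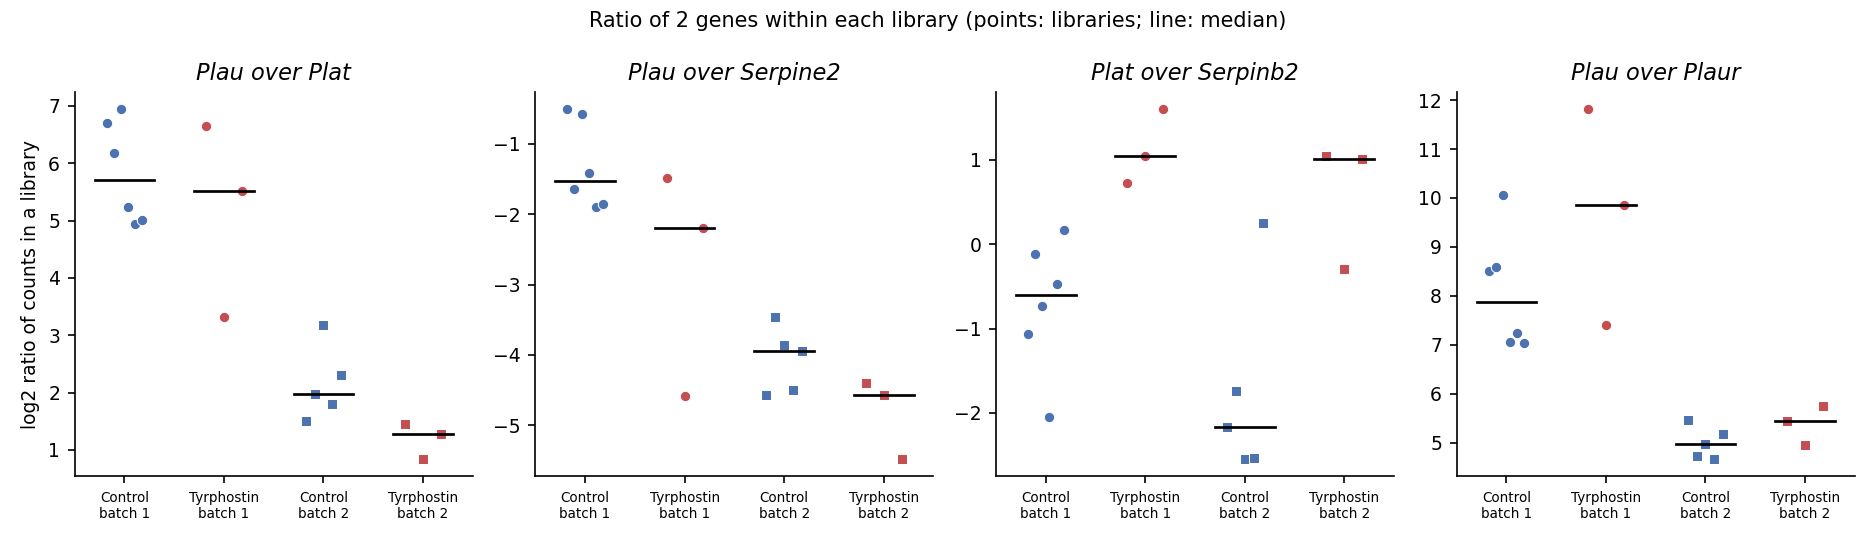
Log2 ratio of the counts of 2 genes within each library, by treatment and batch; points are libraries and lines are medians. Plau over Plat separates the Control libraries of the 2 batches, and Plat over Serpinb2 is higher in Tyrphostin libraries of batch 1 than in all their Control libraries.

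The wider plasminogen system was read from a list of 37 genes, of which 21 passed the filter. Of these 2 were called lower and 0 higher, near the 6.25% lower and 4.35% higher of all genes tested. Their median log2 fold change was -0.07, near the 0.0001 of all genes tested. Plasminogen itself (Plg, at most 6 counts in a library) was near the floor, as was Serpinf2, the plasmin inhibitor (at most 2). No change in these was detectable at this depth. They were singled out after their values were seen. None of the 5 other proteases listed passed the filter, and the one with most counts, the kallikrein Klk1, had at most 5 in a library.

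Vldlr, an endocytic receptor that takes up complexes of activators with serpins, had the lowest p of the list. The Control mean was 324 ± 186.3 CPM (SD, n = 11) and the Tyrphostin mean 92.6 ± 35.9 CPM (SD, n = 6), and all 6 Tyrphostin libraries (50.9 to 138.8 CPM) were below every Control library (162.2 to 844.1 CPM), as were 1% of genes tested. Its log2 fold change was -1.82 ± 0.31 (SE; edgeR adjusted p = 0.00042), and the call held in 14 of 14 alternatives. It was 1 of 8 clearance genes tested to be called.

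Among surface receptors of plasminogen, 1 of 4 tested was called. S100a10, which with annexin A2 binds plasminogen and Plat at the cell surface, averaged 307.8 ± 149.3 CPM (SD, n = 11) in Control libraries. Its Tyrphostin mean was 167.7 ± 46.4 CPM (SD, n = 6), and the log2 fold change was -0.89 ± 0.27 (SE; edgeR adjusted p = 0.0318). Leaving out Control 4 or Tyrphostin 1, 3, 5 or 6 ended that call, with an adjusted p of 0.0541 to 0.0851, as did dropping the batch term (0.0675) or adding log10 of the total count (0.0746). Anxa2, its partner, named after its value was seen, gave -1.1 ± 0.37 on that scale (SE; edgeR adjusted p = 0.062). Eno1, a glycolytic enzyme that can also bind plasminogen, had -0.15 ± 0.31 (SE; edgeR adjusted p = 0.825).

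In the remaining groups no gene was called among 4 other inhibitors, 4 partners of the urokinase receptor and 1 other substrate tested. Serpina5, the protein C inhibitor, had a log2 fold change of 0.38 ± 0.34 (SE). Itgav, the integrin chain that pairs into vitronectin receptors, had the largest uncalled change of the list, -1.38 ± 0.55 (SE; edgeR adjusted p = 0.128). Pdgfd, a growth factor that urokinase can activate, had 0.06 ± 0.17 (SE). Across the Control batches, 2 of the 21 genes were higher in batch 2 and 0 lower, against 5.5% of all genes in each direction. They were Serping1 (log2 difference 2.03, edgeR adjusted p = 0.0183) and Pdgfd (0.93, edgeR adjusted p = 0.00865).

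**Figure D5:**
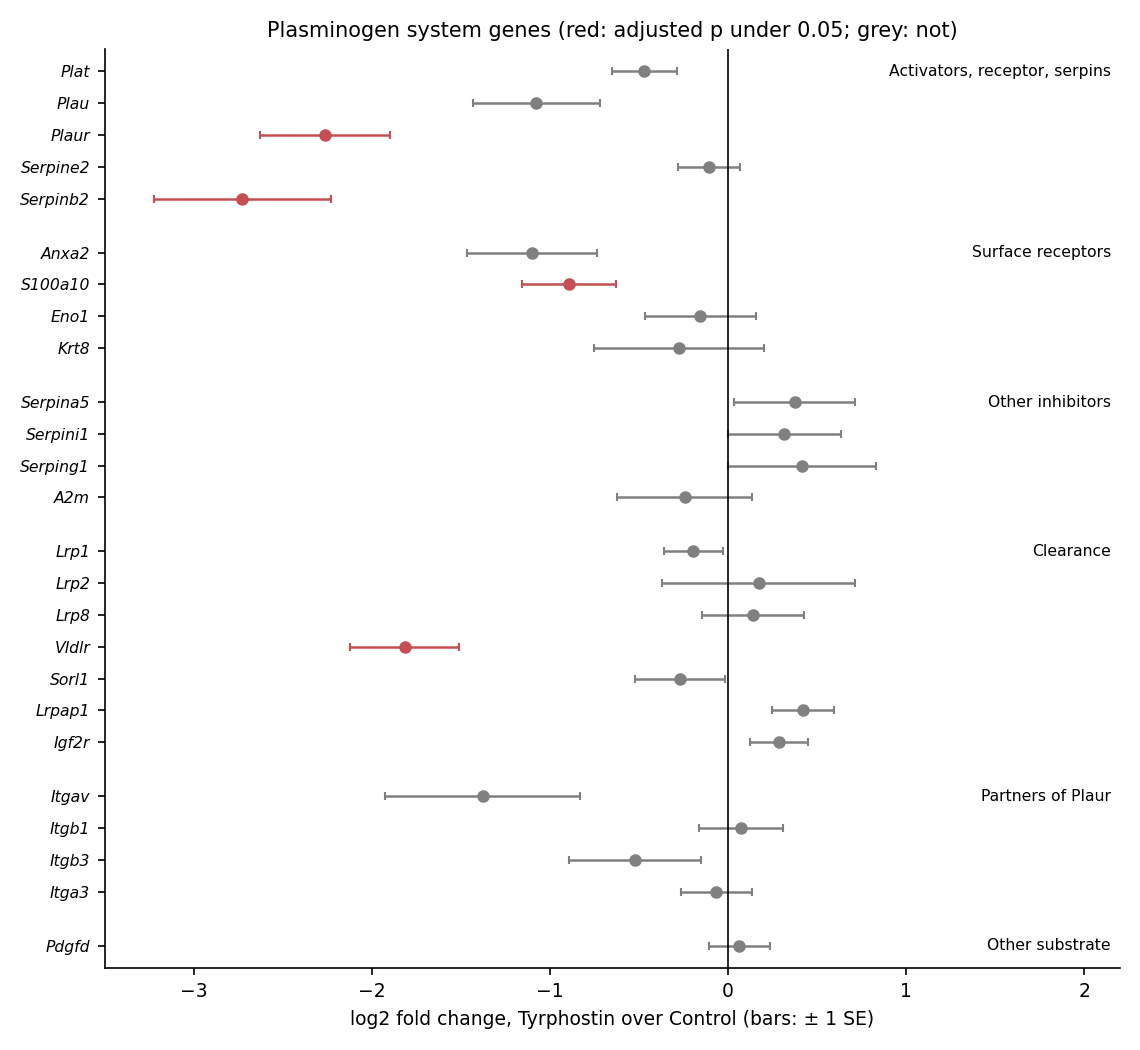
Log2 fold change, Tyrphostin over Control, of the 5 genes and of tested genes of the wider plasminogen system, in groups; bars are 1 SE and red marks an adjusted p under 0.05. Plaur, Serpinb2, S100a10 and Vldlr are the red points, all to the left of 0.

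The genes whose log2 CPM followed each member most closely were ranked by Pearson r over the 17 libraries, which share treatment and batch differences, so r describes these libraries only. For Plau they were Ezr (r = 0.968), Rhog (0.968) and Hspa4 (0.946), with r of 0.959, 0.99 and 0.923 over the 11 Control libraries. For Serpinb2 they were Timp1 (0.946), Dhrs1 (0.911) and Sphk1 (0.891), and for Plaur Ptprn (0.93), Clcf1 (0.893) and Cyb5r3 (0.889). Over the Control libraries alone the values for Serpinb2 were 0.914, 0.882 and 0.811, and those for Plaur 0.621, 0.627 and 0.557. Plat was followed by Pja1 (0.906), Tap2 (0.888) and Ftl1-ps1 (0.853), a processed copy whose reads may be shared with its parent gene. Serpine2 was followed by Bex4 (0.918), Cers5 (0.897) and Npm1 (0.886).

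Because these genes were picked by r over the same 17 libraries, a treatment or batch difference like that of the member is partly built in. Their values are given as a description. Timp1, the inhibitor of matrix metalloproteinases that followed Serpinb2, was lower in Tyrphostin libraries by a log2 value of -2.05 ± 0.38 (SE; edgeR adjusted p = 0.00151). For Ptprn, which followed Plaur, it was -2.31 ± 0.35 (SE; edgeR adjusted p = 0.000104). Rhog and Ezr, which followed Plau, were lower in batch 2 Control libraries by log2 differences of -1.25 and -1.68 (edgeR adjusted p = 0.000725 and 0.00172) and had treatment effects of -0.42 ± 0.15 and -0.68 ± 0.26 (SE; edgeR adjusted p = 0.0799 and 0.105).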

How the data were processed

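Per the labels' protocols, RNA was taken up on SPRI beads and sequenced after Smart-Seq2, which reads whole transcripts and attaches no molecular identifiers. The authors deposited raw counts per gene symbol in 1 table; STAR, HTSeq and GRCm38 are named in the submitters' processing notes, and versions, annotation and strandedness are not given in the sources used here. All 17 columns matched a library by name.

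The test was edgeR 4.0.16 (under R 4.3.3), with filterByExpr, TMM scaling, robust quasi-likelihood F test, Benjamini-Hochberg adjustment over all genes tested. The SE is the log2 fold change divided by the square root of F. Fits covered all 17 libraries with batch as a term, each batch, the interaction, and the 11 Control libraries by batch. Alternatives used DESeq2 1.42.0, limma-voom (limma 3.58.1), other scaling, filters, covariates and replicates. The code was tested on simulated counts. Lengths and positions came from GENCODE M21. The intervals of log2 fold changes were built from the SE, so they reflect the spread between libraries as fitted. Floors based on counts cover counting error only.

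The members and lists were chosen with earlier results of these data known. Genes were named by rule: all 5 members; list genes called, plus the uncalled one with most counts per group; the most abundant marker of each list; and the 3 genes of highest r for each member. Promoter entries matched 3 of 5 members. Some results that this rule would name are not reported here.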

Additional observations from a re-analysis of the deposited data

Results flagged for a closer look

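A library standing far from its group was looked for, gene by gene, in 3 groups (Control of batch 1, Control of batch 2 and Tyrphostin), which makes 15 groups, and 3 had one, all of them for Serpinb2. The figure used for chance was about 0.75. It cannot be set against these 3, which belong to 1 gene and were found on CPM, not log2 CPM. The Tyrphostin group also joined both batches. Control 4 had 379.9 CPM, against 46.9 to 143.4 CPM in the other Control libraries of batch 1. Control 11 had 80.9 CPM, against 395.7 to 522.3 CPM in the other Control libraries of batch 2. Tyrphostin 5 had 110 CPM, against 13.7 to 44.5 CPM in the other Tyrphostin libraries. The treatment effect on Serpinb2 kept an edgeR adjusted p under 0.05 without each of these libraries. No cause was tested.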

How the results depend on the processing

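The titles number the libraries of each group in turn, so Control and Tyrphostin share the numbers 1 to 6, of which 4 to 6 cross batches. The set number in the column names of the Control libraries is another number, and each set keeps to 1 batch. Whether a Control set belongs with the Tyrphostin library of that number is not stated and was not tested. What follows concerns the title numbers only. Deviations from the group means correlated within numbers with r = 0.469, 0.311, 0.377, 0.013, -0.133 and -0.063, and from the means of group and batch they gave 0.323, 0.076 and 0.053 for numbers 1 to 3. The best match was sought among Control 1 to 6 only, all of batch 1. There 5 of the 6 Tyrphostin libraries correlated best with the Control library of their own number, and Tyrphostin 5 with Control 4. For Tyrphostin 4 to 6 this left out every Control library of their own batch, so it cannot show pairing, and it comes from the data and not the design. Since r was not over 0.1 for every number, the numbers were not taken as pairs. With these numbers as a replicate block and batch as a term, 624 genes were called. Numbers 4 to 6 join a Control library of batch 1 to a Tyrphostin library of batch 2. The treatment effect in that fit therefore rests on numbers 1 to 3, all in batch 1. In it Plau had a log2 fold change of -1.84 (edgeR adjusted p = 0.00264), Serpine2 0.0099 and Serpinb2 -2.16 (0.094, no longer called). S100a10 was no longer called either (-0.74, 0.0819). The block in batch 1 alone uses the same numbers 1 to 3 and is not a separate check. Plau had -1.83 there (edgeR adjusted p = 0.00804).

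Tyrphostin and Control libraries differed in 1018 genes. This became 619 when batch was not modelled, 678 when log10 of the total was, 478 at an adjusted p under 0.01 and 450 when a log2 change of 1 or more was also required. The last 2 follow from stricter thresholds, and other causes were not tested. Plau had -1.08 in DESeq2 and -1.24 in limma-voom and was called lower by both. Serpine2 had 0.0332 with total-count scaling. With that scaling the directions in the treatment comparison were 715 higher and 396 lower, against 418 and 600, and among Control batches 907 higher against 502. Leaving out a library gave log2 fold changes of -1.45 to -0.86 for Plau and -0.21 to 0.0218 for Serpine2, in 17 fits each.

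Within batch 1 the count of 634 ran from 394 (without Tyrphostin 2) to 687 over 9 fits that left out a library. Within batch 2 the count of 61 ran from 11 (without Tyrphostin 6) to 221 (without Control 7), and was 222 with no filter. The interaction gave 0 genes, 342 at an unadjusted p under 0.05, and 79 at an adjusted p under 0.05 with no filter. Over 17 fits that left out a library its log2 value ran from -0.67 to 0.65 for Plau and from -0.38 to 0.52 for Serpinb2. Among Control batches the count of 1004 was 101 with libraries summed by set, and 660 to 1063 over 11 fits that left out a library. There Plat had 0.79 and Plaur 0.14 with total-count scaling, Plaur 0.048 with summed sets, and leaving out a library gave -0.25 to 0.15 for Plaur and 1.33 to 2.14 for Serpinb2. The alternatives for normalized values were not run, since the table holds counts.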

Other observations

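The numbers in the names of the Control libraries divide those of batch 1 into 2 sets, Control 1 to 3 and Control 4 to 6, and Plau also varied between these. It was 7165.4, 3135.1 and 6208.5 CPM in the first and 3484.7, 2365 and 2184.8 CPM in the second, overlapping through Control 2 and Control 4. Plaur was 19.7, 8.01 and 5.68 CPM in the first and 26.1, 15.5 and 16.4 CPM in the second. What the sets share is not stated, and the difference was not tested.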
